A study of Arabidopsis thaliana with 3 samples.

Results

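The phosphatidylethanolamine-binding protein (PEBP) family of Arabidopsis thaliana was followed through 6 genes: FT (AT1G65480), TSF (AT4G20370), TFL1 (AT5G03840), BFT (AT5G62040), ATC (AT2G27550) and MFT (AT1G18100). They were chosen by locus, through the transcript that the array annotation gives for each probe. All 6 were on the array, with 2 probes for FT and 1 probe for each of the others, which makes 7 of 43603 gene probes and 6 of the 25383 loci that could be matched. The RNA came from whole seedlings on day 7 and was read on 3 two-colour Agilent arrays. Two-colour here means that each array carried a pair of RNA samples, marked with the dyes Cy5 and Cy3. On both fe-1 arrays, biological replicates 1 and 2, untreated fe-1 seedlings were in Cy5 and untreated wild-type seedlings of the Ler accession (L.er in the labels) in Cy3, all taken at zeitgeber time 15 h, counted from lights on. On the third array, 35S::FE-GR (#5) seedlings that had been kept under 1 µM dexamethasone (Dex) for 2 h were in Cy5 and seedlings of that line under mock in Cy3, both at zeitgeber time 14 h. All seedlings grew at 22 °C in long days on medium with 1% sucrose.

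FE, also known as ALTERED PHLOEM DEVELOPMENT, is a MYB-type regulator needed to form phloem, and fe-1 is a mutant of it. In 35S::FE-GR the constitutive 35S promoter drives FE fused to the hormone-binding domain of the glucocorticoid receptor, and Dex lets such a fusion protein enter the nucleus. The line is a single transgenic line (#5), 35S acts in many cell types besides phloem, the accession of the line is not given in the labels, and no Dex-treated plants without the transgene were analysed here.

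PEBP proteins decide when and where a plant flowers. FT, the florigen, is made in companion cells of the leaf phloem and moves to the shoot apex, where it acts with the bZIP factor FD and 14-3-3 proteins to turn on floral identity genes. TSF is the closest relative of FT and also promotes flowering. TFL1, BFT and ATC belong to the opposite branch, which delays flowering or keeps inflorescence meristems from turning into flowers, and MFT is best known for its part in seed germination. In long days the regulator CONSTANS (CO) activates FT late in the light period.

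Between 72.1% and 78.1% of the gene spots were well above background in each channel of the 3 arrays, and none was saturated. FE, the gene altered in both materials, had normalized levels of 9.99 and 9.91 (log2) in wild type, 9.83 and 9.72 in fe-1, 13.8 with mock and 13.5 with Dex. The lesion of fe-1 is not given in the labels, so these levels do not check the genotype. On fe-1 replicate 1 the scanner software marked 32 spots for a non-uniform local background, which were left out, and no such spot was found on the other arrays. Whether the plants of both fe-1 replicates were grown apart is not stated, so the p-values speak only for these samples. In the gene fit their variance joins the spread between both arrays (1 degree of freedom) with a prior drawn from all genes (6.54 degrees of freedom). With 1 dye orientation, a dye effect of a probe and the effect of the genotype or of Dex cannot be told apart.

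In fe-1 seedlings both florigen genes and 2 of the 3 genes of the TFL1 branch were lower than in wild type. FT, TSF, TFL1 and BFT fell, while ATC and MFT did not pass the test. Of the 6 genes 4 were called lower, where 11.4% of the 20681 genes tested were called lower, 8.9% higher and 20.3% either way (limma, Benjamini-Hochberg adjusted p under 0.05). The median log2 ratio of fe-1 over wild type was -0.64 over the 6 genes and -0.01 over all genes tested. With Dex, 2 of the 6 genes, FT and BFT, were at least 2-fold higher than with mock on the single array, where 3.58% of 20497 genes were that much higher. FT, TFL1 and BFT had ratios below 0 in fe-1 and above 0 with Dex in every processing tried, while the sign of TSF with Dex changed with the processing. The comparisons share no sample. Within the reported background correction, the 4 calls in fe-1 rest on leaving out the 32 spots. With them kept in its fit, none of the 6 genes was called, and FT read -0.61 (limma adjusted p = 0.421). With the scanner software's own processed signals, which do not use that fit, all 4 were called (limma adjusted p between 0.0226 and 0.0463). From the authors' series values none of the 4 was called (limma adjusted p = 0.134 for each), and neither was any other of the 20681 genes tested.

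**Figure D1:**
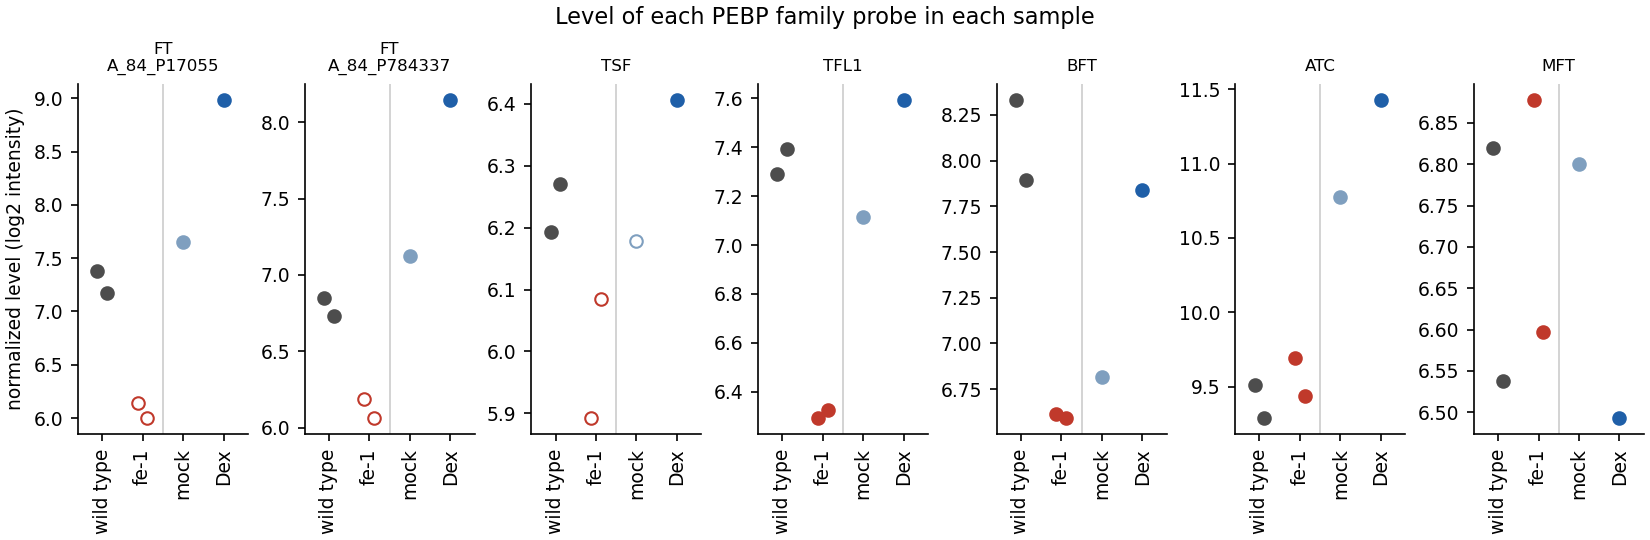
Normalized level (log2 intensity, y axis, a scale of its own for each probe) of the 7 PEBP probes in each sample. Filled points were well above background and open points were not. Wild type and fe-1 have 2 samples each, mock and Dex 1 each, and the grey line parts the comparisons, whose levels were not scaled to each other. For FT, TSF, TFL1 and BFT both fe-1 points lie below both wild-type points. How many of all genes show this order was not counted.

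FT was well above background in wild type (Cy3) and not in fe-1 (Cy5). The probe read for the gene, A_84_P17055, gave spot intensities above the local background of 98 and 86 in wild type (replicates 1 and 2, Cy3), and of 9.5 and 10.5 in fe-1 (Cy5). The scanner software called both wild-type spots well above background and neither fe-1 spot. The background pixels around the fe-1 spots had an SD of 15.5 and 15.2, larger than the signal. Over all PEBP spots this SD was 4.06 to 6.42 in Cy3 and 10.4 to 16.7 in Cy5. Being well above background is thus not a like measure in wild type and in fe-1, which were in different dyes. Raw Cy5 and Cy3 intensities are on different scales, so levels were compared only after normalization within each array. Levels of the 2 fe-1 arrays were also scaled to each other. Normalized FT levels were 7.38 and 7.17 (log2) in wild type and 6.14 and 6.0021 in fe-1. FT fell by 1.204 ± 0.046 on the log2 scale (SD, n = 2 arrays; limma adjusted p = 1.28e-05), with -1.24 on replicate 1 and -1.17 on replicate 2. Since fe-1 was not well above background, the mean of 2.30-fold is a bound in this processing only. It restates the mean ratio, with 2.25-fold on replicate 2, and some other processings gave smaller ratios.

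The other FT probe, A_84_P784337, was lower in fe-1 too. Its intensity above background was 51.5 and 48 in wild type and 13 and 12.5 in fe-1, and again no fe-1 spot was well above background. Its log2 ratios were -0.66 on replicate 1 and -0.67 on replicate 2. By the mean, wild type was 1.58-fold higher, a bound of the same kind (limma on 33480 probes, adjusted p = 1.15e-05). Of the 7 PEBP probes 5 were called lower, where 10.3% of all probes tested were called lower, 8.84% higher and 19.2% either way. With both FT probes averaged, FT read -0.93.

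TSF was near the detection limit on every array. Wild type gave 14 and 19.5 above background, both well above background by the scanner's rule, and fe-1 gave 2 and 12.5, neither of them so. Here too wild type was in Cy3 and fe-1 in Cy5, where the background pixels varied more. The normalized levels were 6.19 and 6.27 in wild type and 5.89 and 6.09 in fe-1, which lie close together. TSF fell by 0.24 ± 0.081 (limma adjusted p = 0.0176). The mean of 1.18-fold is again a bound in this processing only, with 1.14-fold on replicate 2. FT and TSF are close paralogs, and the probe sequences were not used here, so signal shared between their probes was not tested.

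TFL1, which keeps the shoot apex from turning into a flower, was well above background by the scanner's rule in all 4 samples. Its intensity above background was 89 and 110 in wild type and 17 and 30 in fe-1. In fe-1 this was only 1.32 to 2.90 times the SD of the background pixels, and in wild type 19.1 to 20.7 times. The normalized levels were 7.29 and 7.39 in wild type and 6.29 and 6.33 in fe-1. TFL1 fell by 1.03 ± 0.048, which is 2.05-fold in this processing (adjusted p = 2.39e-05), and it fell on both arrays. With fe-1 this dim the size was not settled, at -1.50 with an offset of 16 and -2.43 with the scanner's processed signals.

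BFT, a TFL1-like floral repressor, had the widest spread between arrays of the 6 genes. Its ratio was below that of FT here, but FT is a bound, and with the scanner's processed signals FT was lower (-3.42 against -2.50). It gave 237 and 181 above background in wild type and 33 and 51.5 in fe-1, all well above background. In fe-1 this was 2.30 to 4.64 times the SD of the background pixels. Its levels were 8.33 and 7.89 in wild type and 6.61 and 6.59 in fe-1, and the wild-type levels lay farther apart than the fe-1 levels. BFT fell by 1.51 ± 0.30, or 2.85-fold (adjusted p = 6.74e-05), with -1.72 on replicate 1 and -1.30 on replicate 2, and ranked 17th from the lowest of all genes tested. On replicate 2 alone BFT, FT (-1.17) and TFL1 (-1.07) lay closer together.

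ATC, a TFL1 relative whose product can move from the vasculature, was well above background in every sample and was not called. It gave 594 and 571 above background in wild type and 701 and 786 in fe-1. Its levels of 9.51 and 9.29 in wild type and 9.69 and 9.44 in fe-1 overlapped across samples, although fe-1 was higher within each array. The log2 ratio of 0.16 ± 0.027 just missed the threshold (adjusted p = 0.0504, unadjusted p = 0.0102 by limma). MFT gave 49 and 36 above background in wild type and 55.5 and 47 in fe-1. Its levels of 6.82 and 6.54 in wild type and 6.88 and 6.60 in fe-1 overlapped, with a ratio of 0.06 ± 0.00027 (adjusted p = 0.420).

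**Figure D2:**
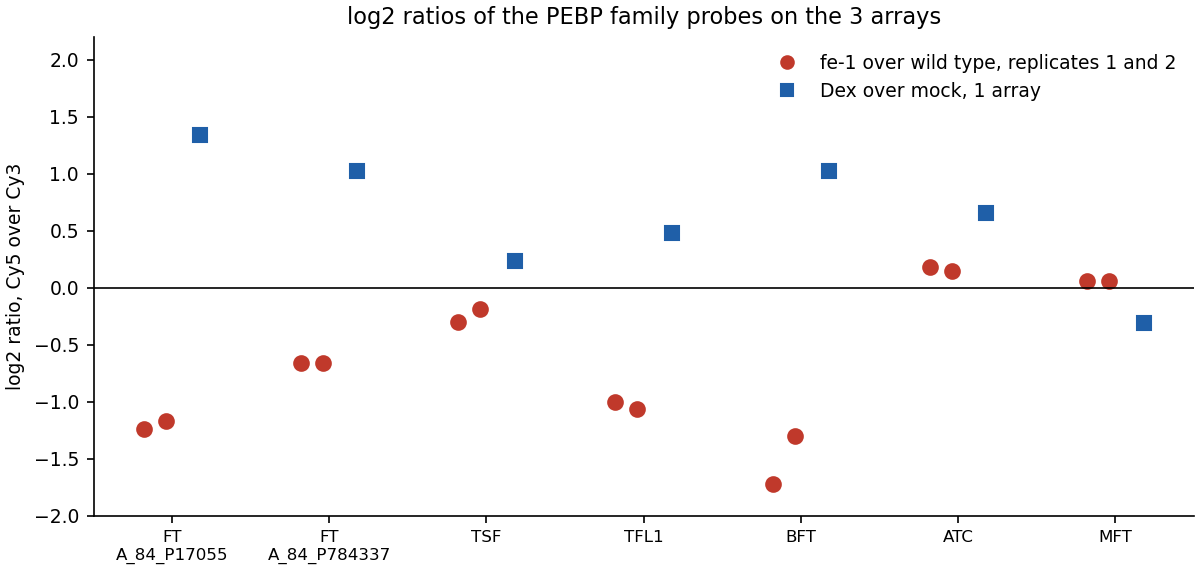
log2 ratio of Cy5 over Cy3 (y axis) for each of the 7 PEBP probes (x axis). Circles are the 2 fe-1 arrays and squares the Dex array. FT, TSF, TFL1 and BFT lie below 0 on both fe-1 arrays and above 0 on the Dex array (TSF at -0.056 there with median centring), while ATC lies above 0 on all 3 and MFT below 0 on the Dex array alone.

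The Dex array compares the same genes after 2 h of Dex with mock in the FE-GR line. It has no replicate, so its values carry no error and no test. FT gave 103 above background with mock and 598 with Dex on A_84_P17055, and 60 with mock and 292.5 with Dex on A_84_P784337. After normalization the first probe was 2.53-fold higher with Dex (log2 ratio 1.34) and the second 2.03-fold (1.02). BFT gave 40.5 with mock and 218.5 with Dex and was 2.03-fold higher (1.02). The raw values with Dex and mock are in different dyes and are not compared as such.

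The other members were under 2-fold on that array. TFL1 gave 61.5 with mock and 175.5 with Dex, a log2 ratio of 0.48 or 1.39-fold. ATC, at 1215.5 with mock and 3755 with Dex, was 1.57-fold higher (0.65). TSF gave 13 with mock, not well above background, and 33.5 with Dex, which was, and its log2 ratio of 0.23 turned to -0.056 with median centring, so no fold is given. MFT, at 44.5 with mock and 43 with Dex, read -0.31 and was 1.24-fold lower. Of the 6 genes 5 were above 0 in this processing (4 with median centring), with a median of 0.57 against 0.00 over all genes on the array. By rank from the highest ratio of 20497 genes, FT was 456th and BFT 713th, so many genes were higher than either.

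**Figure D3:**
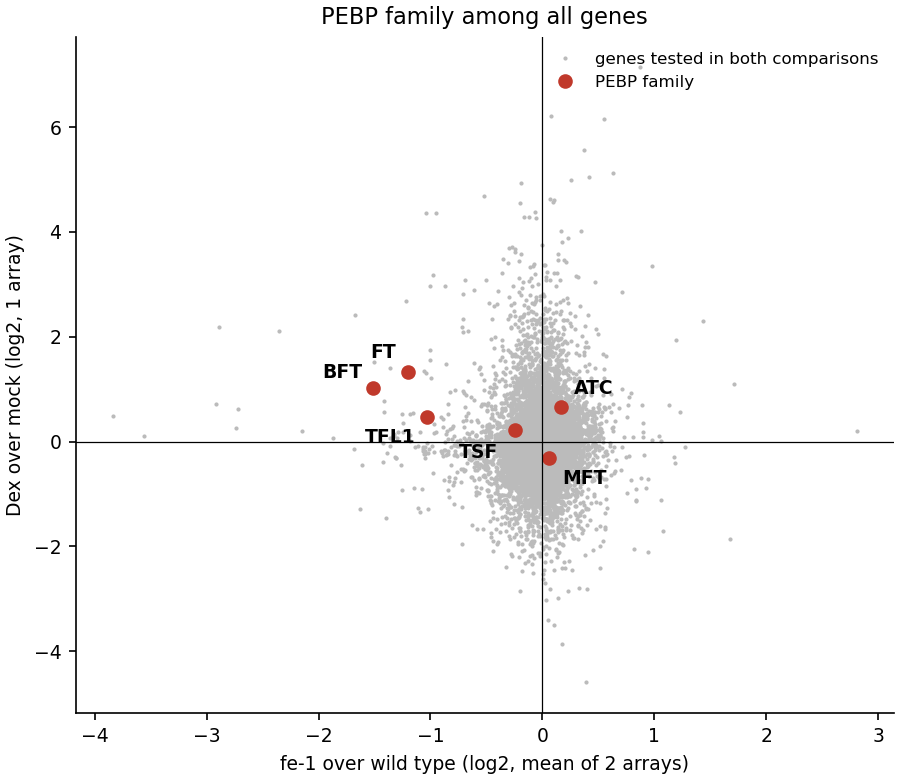
Each grey dot is 1 of the 19980 genes tested in both comparisons, with the mean log2 ratio of fe-1 over wild type on the x axis (2 arrays) and of Dex over mock on the y axis (1 array). The PEBP genes are in red. BFT (-1.51, 1.02), FT (-1.20, 1.34) and TFL1 (-1.03, 0.48) lie in the upper left, below wild type in fe-1 and above mock with Dex.

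Few genes combined both directions at this size. Of the 19980 genes tested in both comparisons, 155 were called lower in fe-1 and at least 2-fold higher with Dex. That was 6.86% of the 2258 lower in fe-1, where 3.58% of all genes on the Dex array were that much higher. It was 21.8% of the 712 higher with Dex, where 11.4% of all genes tested in fe-1 were lower. In 8 of them fe-1 was at least 2-fold lower on both arrays, as in 55 (0.266%) of all genes tested in fe-1. FT and BFT were among these 8. The other 6 were AT5G18600, AT2G32550, RL4, AT1G24575, AT1G10380 and AT4G26010, listed because the count is small. TFL1 did not enter, since its ratio of -1.00 on replicate 1 lay at the border and its Dex ratio was under 2-fold.

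The size of these ratios depended on the background correction. The values above carry an offset of 50 intensity units, added to both channels after background correction, which draws the ratios of dim spots toward 0. With an offset of 16, FT read -1.86, BFT -1.94, TFL1 -1.50 and TSF -0.49, and all 4 were called. With the scanner software's own processed signals, FT read -3.42, BFT -2.50, TFL1 -2.43 and TSF -2.12, again all called (limma adjusted p between 0.0226 and 0.0463). In the authors' series value table the ratios were of the same size but none was called (adjusted p = 0.134 for each of the 4). No gene at all was called from that table. When 32 spots of replicate 1 with a non-uniform local background were kept in the background fit, the ratios were -0.61, -0.71, -0.56 and -0.10 in the same order and none was called. ATC and MFT stayed between 0.01 and 0.17 in every processing tried.

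On the Dex array the order of the members depended on the processing as well. FT was at least 2-fold higher under all 7 alternatives, between 1.18 and 1.74 on the log2 scale. BFT was so under 6 of 7, at 1.00 (just under 2-fold) with median centring and up to 1.92 with the scanner's signals. TFL1 stayed under 2-fold, between 0.46 and 0.79. TSF had the largest ratio of the family, 3.02, with the scanner's signals, but -0.056 with median centring, so its direction with Dex was not settled. Median centring also moved the median of all genes to 0.22 on this array, and TSF lay 0.27 below that median.

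**Figure D4:**
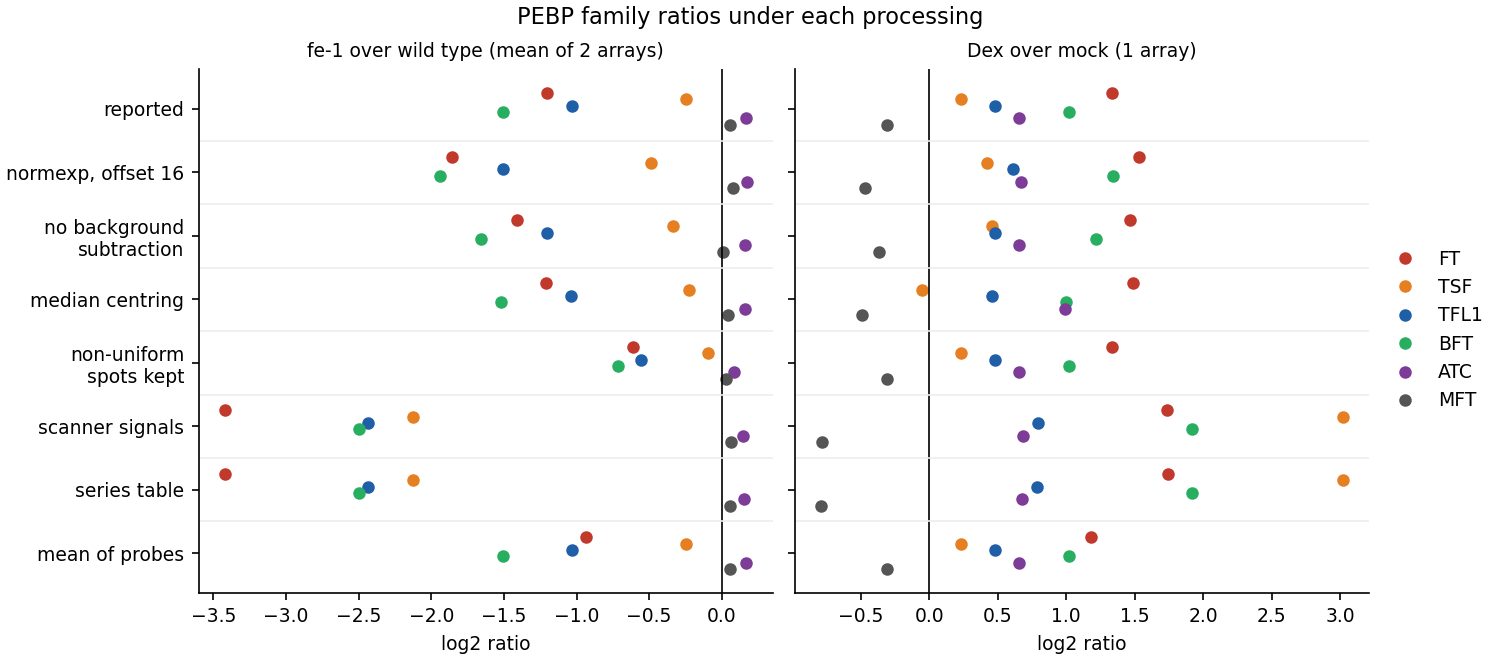
log2 ratio (x axis) of each PEBP gene under the reported processing and 7 alternatives, 1 to a line, for fe-1 over wild type on the left and Dex over mock on the right. FT, TSF, TFL1 and BFT stay below 0 in fe-1 under all 8, while their size changes, FT from -0.61 to -3.42. TSF with Dex runs from -0.056 to 3.02.

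The genes that act with FT were taken from 5 lists: proteins that bind FT or TFL1, FT transport, FT activators, FT repressors, and targets of FT and FD. Of the 50 listed genes 45 were tested in fe-1, of which 5 were higher, 8 lower and 32 not called, a called share to be read against the 20.3% called among all genes. Their median was -0.04. On the Dex array 5 of 45 were at least 2-fold higher and 1 was at least 2-fold lower, where 3.58% and 2.95% of all genes were. With the 32 spots kept, 0 pathway genes were called either way, and with the scanner's processed signals 0 were called higher and 2 lower.

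None of the 8 tested partners was called in fe-1 (0 higher and 0 lower), where 20.3% of all genes were called. Their medians were -0.04 in fe-1 and 0.07 with Dex. FD, the bZIP partner of FT and TFL1, read -0.04 ± 0.057 in fe-1 (adjusted p = 0.593) and -0.04 with Dex. The genes for 14-3-3 proteins that were tested, GRF1, GRF2 and GRF4 to GRF8, lay between -0.15 and 0.01 in fe-1, and GRF6 had the lowest adjusted p of them (0.0597). FDP was well above background in 1 of the 4 samples and was not tested, and GRF3 had no matched probe.

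Of the 4 transport genes 2 fell in fe-1 and 3 were at least 2-fold higher with Dex, where 11.4% and 3.58% of all genes were. Their medians were -0.18 and 1.22. FTIP1, which helps FT leave companion cells, fell by 0.55 ± 0.023 in fe-1 (adjusted p = 0.000437) and read 1.29 with Dex. NAKR1, a phloem protein that interacts with FT, fell by 0.28 ± 0.068 (adjusted p = 0.00923) and read 2.60 with Dex. Over all its probes it read -0.28 to -0.11 in fe-1. QKY, another membrane-anchored factor of FT export, read 0.00 ± 0.068 in fe-1 and 1.15 with Dex. SYP121, a syntaxin of the plasma membrane, read -0.07 and -0.14.

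Among FT activators, CO read 0.00 ± 0.043 in fe-1 (adjusted p = 0.978), where FT fell, and 2.18 with Dex. Its other probe read -0.13 in fe-1. Of the 11 activators 1 was higher and 2 were lower in fe-1, where 8.9% and 11.4% of all genes were. PIF4, which links warmth to FT, rose by 0.24 ± 0.12 (adjusted p = 0.0233), and its Dex ratio was -0.19. NF-YB2, a subunit of the complex that CO works with, fell by 0.37 ± 0.17 (adjusted p = 0.00790) and read -0.45 with Dex. FE itself fell by 0.17 ± 0.031 (adjusted p = 0.0432), while its other probes read up to 0.06. GI and FKF1, which act upstream of CO, were not called and read 0.04 and -0.05.

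Of 14 FT repressors tested, 4 rose and 2 fell in fe-1, where 8.9% and 11.4% of all genes did. SVP, a MADS-box repressor, rose by 0.30 ± 0.020 (adjusted p = 0.00602), and TEM1 and TEM2, which bind the FT leader region, by 0.28 ± 0.099 and 0.23 ± 0.17 (adjusted p = 0.0126 and 0.0487). SMZ, an AP2-like repressor, rose by 0.22 ± 0.069 (adjusted p = 0.0243) and was lower with Dex, at -1.02. FLM and CDF3 fell by 0.19 ± 0.032 and 0.26 ± 0.22 (adjusted p = 0.0346 and 0.0449). FLC read -0.02 ± 0.023 (adjusted p = 0.833). TOE1 had no matched probe.

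Of the 8 FT and FD targets tested, 2 fell and none rose in fe-1, where 11.4% and 8.9% of all genes did. SPL4 fell by 0.36 ± 0.22 (adjusted p = 0.0153) and read 1.94 with Dex. SEP3, a floral organ identity gene, fell by 0.32 ± 0.043 (adjusted p = 0.00521) and read 0.12 with Dex. SOC1, an early target of FT in the shoot apex, read -0.10 ± 0.14 in fe-1 (adjusted p = 0.270) and -0.53 with Dex. AP1 and LFY, which mark the start of flower formation, were well above background in none of the 6 samples.

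**Figure D5:**
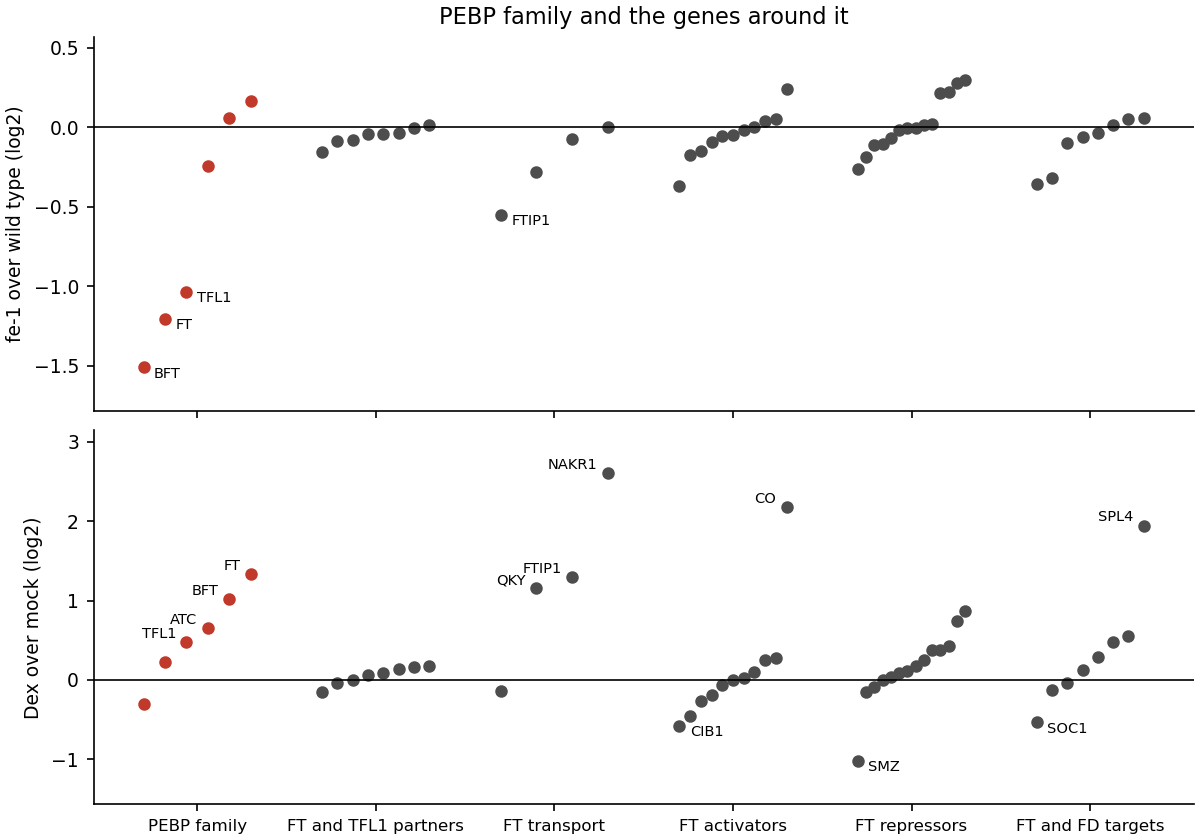
log2 ratios of the PEBP genes (red) and of the 5 lists of genes around FT (grey), with fe-1 over wild type above and Dex over mock below. Each point is 1 gene, sorted within its list. In fe-1 FT, BFT and TFL1 lie below every listed gene, and with Dex NAKR1 (2.60), CO (2.18) and SPL4 (1.94) lie above every PEBP gene.

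The tissue label was checked against marker genes. The counts below stand beside 11.4% of all genes called lower and 8.9% higher in fe-1, and 3.58% at least 2-fold higher with Dex. Leaf, phloem and root hair markers were present in all samples, while the meristem gene WUS was well above background in none of the 6 and CLV3 in mock only. Of 4 phloem markers 2 fell in fe-1 (SEOA and NAKR1), while SUC2 (-0.06) and SEOB (-0.13) were not called, and the summed normalized level was 4936 to 5420 in fe-1 and 5855 to 6170 in wild type. With Dex 2 of 4 were at least 2-fold higher (SUC2 at 3.20 and NAKR1 at 2.60), SEOA read 0.17 and SEOB -0.14, and the sum was 40900 with Dex and 9057 with mock. Root hair markers fell in 5 of 5, with sums of 1233 to 1398 in fe-1 and 2587 to 2721 in wild type, and 1862 with Dex against 1934 with mock. Seed markers fell in 4 of 4 tested, with sums of 489 to 1231 in fe-1 and 2082 to 3120 in wild type, beside which the seed gene MFT read 0.06. Of 4 leaf markers 2 rose (RBCS1A and LHCB1.3), with sums of 486688 to 504765 in fe-1 and 367029 to 373143 in wild type. Over all their probes RBCS1A read 0.04 to 0.56 and LHCB1.3 -0.04 to 0.48. Of the shoot meristem markers 1 of 2 tested fell (STM, -0.27, with its other probe at 0.04), and of the flower markers 1 of 4 (PI, -0.31). The part of these tissues in the PEBP results was not tested. In whole seedlings fewer cells of a type and less RNA per cell cannot be told apart.

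FT lies on chromosome 1, as FE does, with 1182 tested genes between them in the RefSeq gene order. TSF lies on chromosome 4, and TFL1 and BFT on chromosome 5. Among the 5 tested genes on each side of FT, 10 in all, 3 were called higher in fe-1, where 8.9% of all genes were, and the lowest read -0.16. Among the 200 tested genes nearest in order, equally many on each side, 27 (13.5%) were lower and 26 higher, where 11.4% and 8.9% of all genes were, with a median of 0.00 and a lowest value of -2.72. A difference linked to the fe-1 locus was not tested for FT itself.

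The genes nearest to FT over the 3 arrays were AT1G10380, AT4G00780 and AT3G21460, at Euclidean distances of 0.24, 0.25 and 0.31 between log2 ratios, among 19980 genes. AT1G10380 read -1.34 and -1.38 in fe-1 and 1.40 with Dex. TFL1 was nearest to AT5G63940 (0.10), MRH6 (0.20) and AT1G71410 (0.21). BFT was nearest to HVA22E (0.54), AT1G10380 (0.54) and AT4G14020 (0.70), so it had no close match. With 3 arrays such likeness is only a description.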

How the data were processed

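Per the file headers the deposited scanner files, written by Agilent Feature Extraction (version 10.7.3.1, or 10.7 in the submitters' processing notes), give each spot's intensity in both channels. The median spot and background intensity were used, as neither is normalized. The deposited log10 ratio is Cy5 over Cy3 after the scanner software's own processing, per the file headers. A table of log2 ratios from the authors covers the same arrays, lies within 0.005 of those ratios on a log2 scale and has a median of 0 on each array. Between 13.5% and 15.0% of the deposited gene ratios were exactly 0 on each array.

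Background was corrected with normexp (offset 50), without the 32 non-uniform spots of fe-1 replicate 1, and arrays were normalized by loess in limma 3.58.1 (R 4.3.3), with control and outlier spots at weight 0. Accessions of 34285 of 43603 probes matched a RefSeq locus (TAIR10.1), used for names and gene order only, since the array header names another build. Probes needed 2 of the 4 fe-1 channels, or 1 channel of the Dex array, well above background. The brightest such probe stood for its gene, and each was also tested alone. limma (lmFit, eBayes) tested log2 ratios against 0 on the 2 fe-1 arrays (1 residual and 6.54 prior degrees of freedom). The p-values were adjusted over all genes or probes. The fit was also run on simulated ratios that held no dye effect of a probe, so that run does not bear on dye bias. Levels are loess values, which were Aquantile-scaled between the arrays for fe-1. A lower bound sets the bright group's mean level over the dim probe's own level or, if higher, the lowest level well above background. For FT and TSF in fe-1 it equalled the mean ratio, and it is open to dye bias.

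Named genes were all 6 members with every probe, all called genes of 5 pathway lists with CO, FD, SOC1 and AP1 and up to 4 others a list, up to 5 markers a list, FE, and the 3 genes nearest to FT, TFL1 and BFT. The members, lists and processing, including leaving out the non-uniform spots, were chosen with earlier results of these data known. Alternatives were other background corrections, median centring, the series value table, other filters, the mean of probes and leaving out each array.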

Additional observations from a re-analysis of the deposited data

How the results depend on the processing

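In fe-1 against wild type, FT and TSF kept their call under 6 of 8 alternatives and TFL1 and BFT under 7 of 9, all below 0. The exceptions were the series value table (FT -3.42, TSF -2.125, TFL1 -2.435, BFT -2.495) and keeping the non-uniform background spots (FT -0.61, TSF -0.10, TFL1 -0.56, BFT -0.71). The spots moved the fitted background mean on replicate 1 from -10.8 to -1128 in Cy5, and without that array FT read -1.17, TSF -0.19, TFL1 -1.07, BFT -1.30, ATC 0.14 and MFT 0.06. Without replicate 2 the values were -1.24, -0.30, -1.00, -1.72, 0.18 and 0.06, and with 1 array left there was no test. Requiring all 4 channels well above background removed FT and TSF, and ATC was then called (0.16, adjusted p = 0.0449), where its adjusted p ran from 0.0449 to 0.706 over the alternatives. With Dex, TSF read 3.02 both from the scanner's signals and from the series table but -0.056 with median centring, and BFT read 1.00 with median centring. The cause of these changes was not tested.

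Counts of calls in fe-1 moved as follows. Against 1840 genes higher and 2348 lower, the scanner's processed signals gave 139 and 411, the non-uniform spots kept 7 and 42, an offset of 16 gave 1015 and 1499, median centring 1504 and 1494, while limma called 0 and 0 from the series values (6035 genes had an unadjusted p under 0.05). Against 2959 probes higher and 3454 lower, the same alternatives gave 25 and 141, 17 and 87, 1077 and 1592, 2334 and 2032, and 0 and 0 (8837 probes at an unadjusted p under 0.05). Of the pathway genes, 5 higher and 8 lower became 0 and 2, 0 and 0, 2 and 5, and, from the series values, 0 and 0, and with the mean of kept probes 5 were lower. No further paired analysis was possible because the ratio within each fe-1 array already pairs fe-1 with wild type, which leaves no block to add. In fe-1 the FT and TSF spots (Cy5) were not well above background, so only bounds can be had for their loss. Background pixels varied more in Cy5 than in Cy3, the dye of wild type.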
